A study of Macaca fascicularis with 6 samples.

Results

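Natural killer (NK) cells of the lung were followed here in 6 single-cell libraries from male cynomolgus monkeys aged 3 to 5 years, 1 library per monkey. The control group (replicates 1, 2 and 3) received saline, and the asthma group (replicates 8, 10 and 11) was sensitized with A. suum antigen at 1 mg/mL and challenged with it at 10 mg/mL. In week 11 the lungs were taken in both groups and dissociated with enzymes, and dead cells were removed before capture. A cell was taken as an NK cell if it had more than 500 and fewer than 5000 genes and at most 25% of its transcripts in mitochondrial genes, no transcript of CD3D, CD3E or CD3G (the CD3 chains of the T cell receptor complex), at least 3 of the 7 genes GNLY, KLRD1, NKG7, PRF1, KLRC1, GZMA and GZMB, and no transcript of MKI67, TOP2A, MS4A1, C1QA, CSF3R or VCAN. This selected 1367 of the 25388 cells that passed the same limits (5.38%), out of 35133 barcodes in all. Members were thus chosen by the transcripts themselves, and the levels of these 16 genes are given only as a description.

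NK cells are lymphocytes of innate immunity that kill infected, stressed or transformed cells without a rearranged antigen receptor. Their activity is set by the balance between activating receptors, which signal through small adaptors such as TYROBP (DAP12), FCER1G and CD247, and inhibitory receptors that read MHC class I. Killing is done by perforin and granzymes released from granules, and IFNG and chemokines such as CCL5 carry signals to other cells. The closest cells in tissue are cytotoxic T cells, which hold the same granule genes. Many NK levels are therefore set beside cells of the same libraries that passed the same limits and gates but had at least 1 CD3 transcript. There were 5647 of these CD3-positive cytotoxic cells.

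Control replicates 1, 2 and 3 contributed 316, 159 and 347 NK cells, and asthma replicates 8, 10 and 11 contributed 135, 286 and 124. Each transcript was counted once by its unique molecular identifier (UMI), and NK cells had a median of 3571 UMIs and 1319 genes, against a median of 4225.5 UMIs over all cells. Summed over NK cells, a library gave between 384639 and 1289299 UMIs. Levels below are in CPM, the UMIs of a gene per 1000000 UMIs of the class in that library. They count molecules at the 3′ end and so need no scaling by gene length. A gene with 0 UMIs in a library could still be present at up to 2.33 (control replicate 3) to 7.80 CPM (asthma replicate 11), the level that 3 UMIs would give, and such limits cover counting error only. Of all barcodes, 137 occurred in more than 1 library. No barcode was an NK cell in more than 1 library, and 11 NK barcodes occurred elsewhere among other cells.

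The label was checked with FCER1G and TYROBP, marker genes that were not used for selection. FCER1G was at 1376, 1569 and 1725 CPM in NK cells of control replicates 1, 2 and 3 and at 1299, 1520 and 1396 for asthma replicates 8, 10 and 11. CD3-positive cytotoxic cells had 863, 412, 401, 248, 101 and 866 in the same order, so that no value of the classes overlapped. TYROBP was at 2736, 3907, 3952, 3485, 5955 and 2691 in NK cells and lay between 930 and 2074 in the CD3-positive cells. After thinning each cell to 1000 UMIs, TYROBP was detected in 92.0% of 1337 NK cells, in 41.5% of CD3-positive cytotoxic cells and in 10.9% of B cells, which should lack it. FCER1G was detected in 69.3%, 18.6% and 5.78% of these cells. Thinning left out 30 NK cells with too few UMIs, and without it the shares of NK cells with TYROBP and FCER1G were 95.7% and 86.5%. Both adaptors also serve myeloid cells, and in macrophages FCER1G was detected in 95.1% of thinned cells. B cells had a median of 4097 UMIs and macrophages a median of 23704.5.

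All 7 of the selecting cytotoxic genes were detected in 404 NK cells, 6 in 461, 5 in 288, 4 in 129 and 3 in 85. TYROBP was at 4590 CPM in cells with 7 of these genes and at 1052 in cells with 3, which also had fewer UMIs (a median of 1448 against 3947.5). Just outside, 136 CD3-negative cells with 2 of the 7 genes had TYROBP at 555. The other edge was the CD3 limit. A single CD3 UMI set 432 cells apart, in which TYROBP was at 3171, FCER1G at 1277 and TRAC, the constant region of the T cell receptor alpha chain, at 63.8. The 5215 cells with 2 or more CD3 UMIs had TYROBP at 1178, FCER1G at 360 and TRAC at 583. In these levels pooled over libraries, cells with 1 CD3 UMI lay nearer to the NK cells than to the other CD3-positive cells. This did not hold in every library. FCER1G of asthma replicate 10 was at 661 in these cells, against 1520 in NK cells and 86.7 with 2 or more CD3 UMIs. TYROBP of asthma replicate 11 was at 2086, against 2691 and 1606 in the same order.

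NK cells made up 7.01%, 4.53% and 8.53% of cells for control replicates 1, 2 and 3, and 3.14%, 6.06% and 2.90% for asthma replicates 8, 10 and 11. The group means were 6.69% ± 2.02 (SD, n = 3) and 4.03% ± 1.76 (SD, n = 3), a difference of -2.66 percentage points. The groups overlapped, since asthma replicate 10 lay above control replicate 2 (two-sided exact permutation test, p = 0.2, where 20 assignments allow no p below 0.1). Leaving out control replicate 2 or asthma replicate 10 removed this overlap by construction, with differences of -3.74 and -3.67 percentage points. Without control replicate 1 or 3 the difference was -2.50 and -1.74, and without asthma replicate 8 or 11 it was -2.21 and -2.09. Among cytotoxic cells alone, NK cells were 26.7%, 13.7% and 28.8% in the control group and 8.91%, 21.1% and 20.8% in the asthma group (exact permutation p = 0.4, a denominator chosen after seeing the data). Counted after thinning every cell to 1000 UMIs, which lets cells with few CD3 transcripts enter, the shares were 13.8%, 9.23% and 13.8% against 5.45%, 9.45% and 5.52% (exact permutation p = 0.2). Control replicate 2 had the lowest share and asthma replicate 10 the highest of its group among all cells and after thinning, as the plot of NK shares shows.

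**Figure D1:**
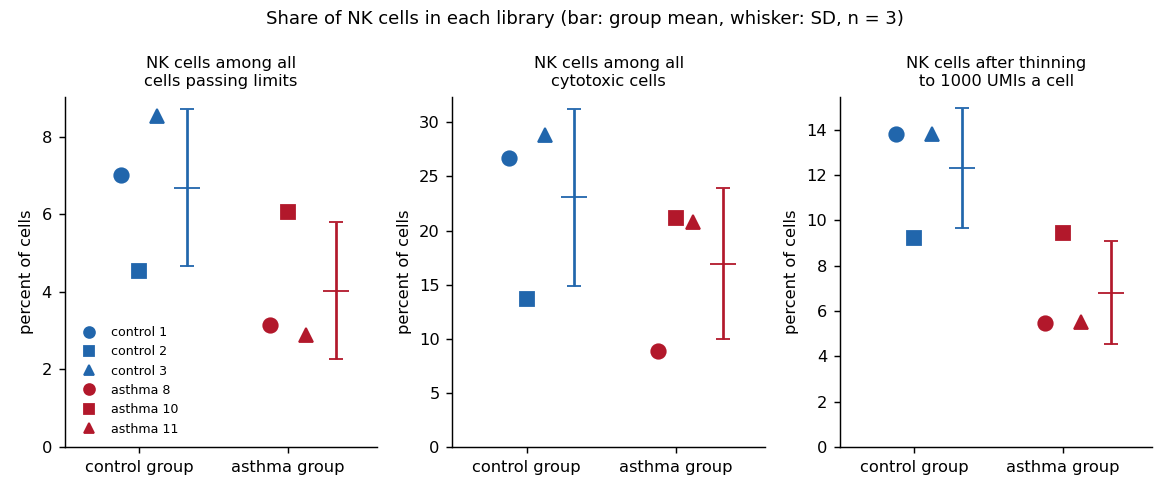
Share of NK cells in percent (vertical axis) for each library of the control and asthma groups, among all cells within the limits, among all cytotoxic cells, and after thinning every cell to 1000 UMIs. Points are libraries, bars are group means and whiskers are SDs (n = 3), and in each panel the highest asthma library lies above the lowest control library.

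The cytotoxic effector genes were abundant in all 6 libraries. GZMB, a granzyme that triggers death of the target cell, was at 12509, 12322 and 15382 CPM for control replicates 1, 2 and 3 and at 12123, 17601 and 15516 for asthma replicates 8, 10 and 11. GNLY (granulysin), which lyses membranes of microbes and target cells, was at 5948, 8585 and 5380 in the control group and at 5755, 15995 and 6832 in the asthma group. Asthma replicate 10 stood apart for GNLY, while the other 5 libraries lay within 5380 to 8585. PRF1 (perforin), which forms pores in the target cell, lay between 416 and 675, and NKG7, a granule membrane protein, between 2732 and 3913. GZMA lay between 705 and 2438 with its lowest value in asthma replicate 11. Since these genes selected the cells, their levels are a description. GZMK, a granzyme not used for selection, varied widely, with 900.5, 407 and 654 in the control group and 619, 835 and 52.0 in the asthma group. In asthma replicate 11 only 20 GZMK UMIs in 12 of 124 NK cells were counted, and GZMK was also lowest there in CD3-positive cytotoxic cells, at 154.

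The most abundant of the listed inhibitory receptors were C-type lectins of the NK gene complex. KLRD1 (CD94), which pairs with KLRC1 (NKG2A) to bind HLA-E, was at 710 to 1170 CPM. KLRC1 was at 136, 1081 and 298 in the control group and at 714, 372 and 458 in the asthma group, a wide spread between monkeys of the same group. Reads of near-identical KLRC genes without a symbol in the files could be counted with KLRC1, so its level is uncertain. KLRB1 (CD161), an inhibitory lectin not used for selection, was at 1347, 541 and 1426 in the control group and at 725, 998 and 920 in the asthma group. Control replicate 2 thus had the highest KLRC1 and the lowest KLRB1 of all libraries. Of the activating receptors, NCR3 (NKp30) was the most abundant at 161 to 400, followed by KLRK1 (NKG2D), which binds stress ligands, at 96.7 to 167. NCR1 (NKp46) lay between 28.1 and 61.9 and KLRF1 (NKp80) between 30.8 and 67.2. NCAM1 (CD56), used to define human NK cells, was nearly absent, with 0 to 9 UMIs per library.

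In the comparison with CD3-positive cytotoxic cells, 244 of 2732 genes with at least 50 CPM in either class were higher in NK cells in all 6 libraries (8.93%), and 344 were lower (12.6%). The selection itself separates these classes, so the values are a description without a test. Signalling genes of innate receptors led the NK side. SYK, the kinase downstream of TYROBP and FCER1G, was at 110, 101, 114, 99.6, 82.7 and 107 in NK cells and at 10.5 to 65.2 in CD3-positive cells, a ratio of means of 3.59. SH2D1B (EAT-2), an adaptor of SLAM-family receptors, had a ratio of 3.33 and FCER1G one of 3.07. CD7, a surface glycoprotein of NK and T cells, was at 890 to 1934 against 111 to 783, and TXK, a TEC-family kinase, at 245 to 355 against 53.3 to 230. CD38, an ectoenzyme of activated lymphocytes, was nearly constant in NK cells, at 99.6 to 114. With the selecting genes left out, MYO1E, OPLAH and AOAH completed the 10 genes named on this side, with ratios of 2.81, 2.63 and 2.73.

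**Figure D2:**
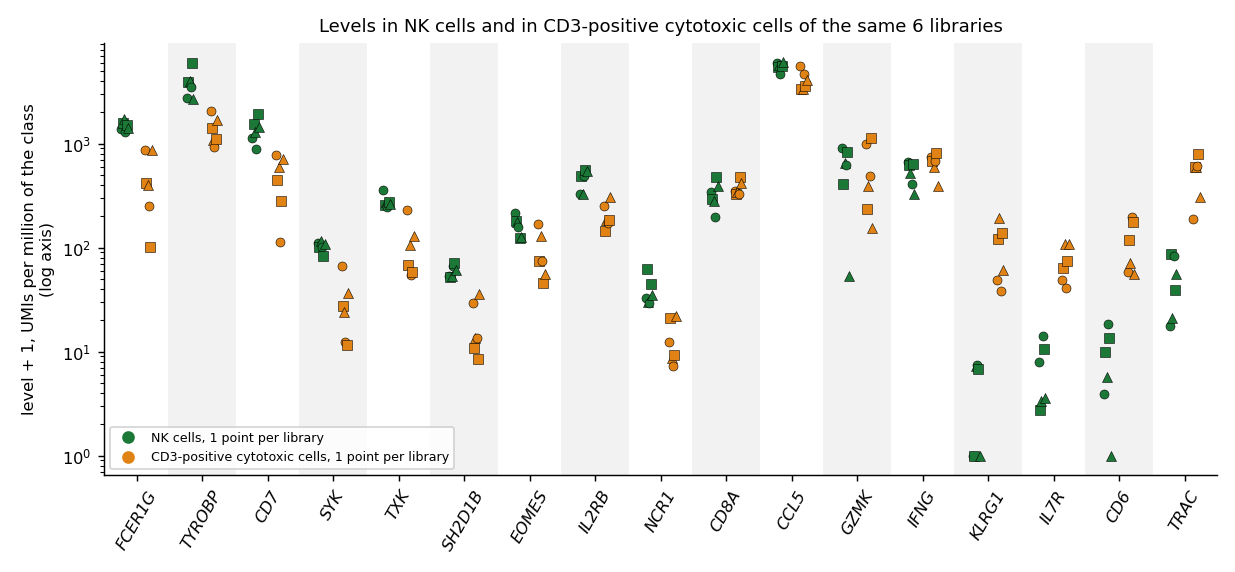
Levels of 17 genes (CPM of the class plus 1, log axis) in NK cells (green) and in CD3-positive cytotoxic cells (orange), 1 point per library with marker shapes separating libraries. FCER1G, TYROBP, SYK and SH2D1B lie higher and TRAC, CD6, IL7R and KLRG1 lower in NK cells in every library, while the ranges of the classes overlap for CD8A, GZMK and IFNG.

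Higher in CD3-positive cells were T cell genes and, with the largest ratios, genes of antibody-secreting cells. TRAC was at 16.8, 84.9, 20.2, 82.2, 38.5 and 54.6 in NK cells and at 188 to 792 in CD3-positive cells, and 8.85% of NK cells held at least 1 TRAC UMI against 63.1% of CD3-positive and 3.04% of B cells. CD6, a co-receptor of T cells, was at 0 to 17.3 against 54.5 to 194, and IL7R, the receptor for interleukin 7, at 1.77 to 12.99 against 39.9 to 108. KLRG1, an inhibitory receptor often found on differentiated effector lymphocytes, was at 0 in 3 libraries and at most 6.49 in NK cells, against 37.0 to 191. IGKC and JCHAIN, genes of antibody-secreting cells, were at 7.70 to 60.6 and 3.88 to 28.6 in NK cells, and their means were 74.5 and 33.1 times higher in CD3-positive cells. In CD3-positive cells IGKC reached 4966 in control replicate 2 and 5391 in asthma replicate 11, and JCHAIN 1212 in control replicate 2. CLIC5, PTTG1, SIRPG and CCDC167 were 3.39 to 4.75 times higher in CD3-positive cells by the ratio of means. CD8A, which macaque NK cells also carry, was at 197 to 470 in NK cells and at 324 to 474 in CD3-positive cells, lower in NK cells in all 6 libraries although the ranges overlapped.

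Grouped by role, receptors and their signalling genes divided between the classes. Over all 14779 genes with a symbol and a UMI in either class, 3.19% were higher and 4.53% lower in NK cells in all 6 libraries, including genes of low level as in the lists. Of 19 adaptor and signalling genes with a symbol, 10 were higher in NK cells in all 6 libraries (among them ZAP70, LAT2, VAV3, PLCG2 and CD247) and LAT and SH2D1A, which serve the T cell receptor or SLAM receptors of T cells, were lower. Of 12 inhibitory receptors, KLRB1, CD300A and the selecting genes KLRD1 and KLRC1 were higher and TIGIT, CD96, LAG3, KLRG1, CTLA4 and PDCD1 lower. Of 13 activating receptors 4 were higher (NCR1, NCR3, KLRF1 and KLRK1) and 3 lower (CD2, CD160 and CD226). Among 23 transcription factors, EOMES and NFIL3, which drive NK cell development, were higher, whereas ETS1, ID3, RORA, IKZF2 and ZNF683 were lower. EOMES was at 215, 179, 177, 156, 122 and 125 in NK cells against 44.9 to 169, and TBX21 (T-bet), its partner in effector differentiation, was at 106 to 188 against 105 to 161 without a consistent side. IL2RB, the shared receptor chain for interleukins 2 and 15, was at 323 to 555 against 143 to 305.

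Of 24 genes of tissue residency and homing with a symbol, 11 were lower in NK cells in all 6 libraries and 1 was higher, ITGAM, an integrin chain of NK and myeloid cells. CXCR6, a receptor of resident lymphocytes, had 0 UMIs in 5 libraries and 3 in asthma replicate 10, against 6.45 to 30.6 CPM in CD3-positive cells. ITGA1 (CD49a) was at 0 to 6.73 and ITGAE (CD103) at 7.07 to 28.1. CD69, an early activation and retention marker, was abundant, at 2425, 1385 and 1400 in the control group and 1491, 1732 and 595 in the asthma group, and lower than in CD3-positive cells in every library. CX3CR1, the fractalkine receptor of circulating effector cells, lay between 34.6 and 90.9.

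Of the listed cytokines and chemokines, CCL5, a chemokine for T cells and eosinophils, was highest, at 5916, 5454 and 5680 CPM in the control group and 4645, 5562 and 6021 in the asthma group. It was higher than in CD3-positive cells in all 6 libraries by a ratio of means of 1.35. TGFB1 was at 743 to 1079 and likewise higher in all 6. IFNG, the main NK cytokine acting on macrophages, was at 656, 626, 517, 409, 636 and 328 and lower than in CD3-positive cells in all 6. TNF lay between 3.54 and 21.7 in NK cells. IL2 had 0 UMIs in every library. The 27 UMIs of CSF2 came from 1 cell of asthma replicate 8. Of 15 genes of helper innate lymphoid cells, which share a lineage with NK cells, 11 were detected, with LTB the most abundant. IL17RB, KRT86, PTGDR2 and IL1RL1 were at 0. Since the selection asked for cytotoxic genes, these values do not measure how common helper innate lymphoid cells were in the lung. IL13 was counted in control replicate 1 alone, at 0.986.

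Clustering of the NK cells gave 7 sub-clusters, numbered by size and not named as cell types. Sub-cluster 1 held 368 cells and was led by CSF2 and CLC, whose UMIs came from few cells (0.272% of its cells each), and by DTHD1 (58.5 against 22.5 in the rest). Sub-cluster 2, of 245 cells, was led by TNFSF9, IFNG, CTSW, DNAJB1 and CXCR4, with IFNG at 921 CPM against 478 in the rest. Sub-cluster 3 (231 cells) was led by DTX3L, TMEM168 and CUL4B and had FOS, an immediate-early transcription factor, at 749 against 2052. Sub-cluster 4 (223 cells) was led by ANAPC7, MAK16 and GZMA, with GZMA at 2751 against 1539, GNLY at 12027 against 7550 and TYROBP at 5491 against 3645. The same cells were clustered and described, so these differences carry no test.

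The other sub-clusters were led by genes outside the NK program. Sub-cluster 5, of 185 cells with a median of 1466 UMIs and 10.6% of UMIs in mitochondrial genes, was led by SFTPC (surfactant protein C of alveolar epithelium), MGP and ITLN1, and held FCER1G at 457 and TYROBP at 1466. Most of its cells held no UMI of these leading genes. SFTPC was detected in 37.3% of them against 32.1% of the rest, MGP in 11.4% against 2.62% and ITLN1 in 17.8% against 12.4%. Of the selecting genes, GZMB was detected in 100% of its cells, GNLY in 82.2% and KLRC1 in 24.3%. Sub-cluster 6 (101 cells, a median of 1814 UMIs) was led by small nuclear RNAs such as U2 and by JCHAIN. Sub-cluster 7, of 14 cells with a median of 12890.5 UMIs, was led by CPVL, VMO1, CST3, DNASE1L3, HLA-DRA and CLEC9A. VMO1 was detected in all 14 cells and CLEC9A, a receptor of dendritic cells, in 42.9%, and PRF1 was at 38.0 there against 571 in the rest. It had 2, 3 and 8 cells for control replicates 1, 2 and 3 and 1, 0 and 0 for asthma replicates 8, 10 and 11. Without sub-clusters 5 and 7, an alternative chosen after seeing the data, 1168 NK cells remained, and their share of all cells was 5.59% ± 2.07 in the control group and 3.51% ± 1.93 in the asthma group (SD, n = 3, exact permutation p = 0.2).

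**Figure D3:**
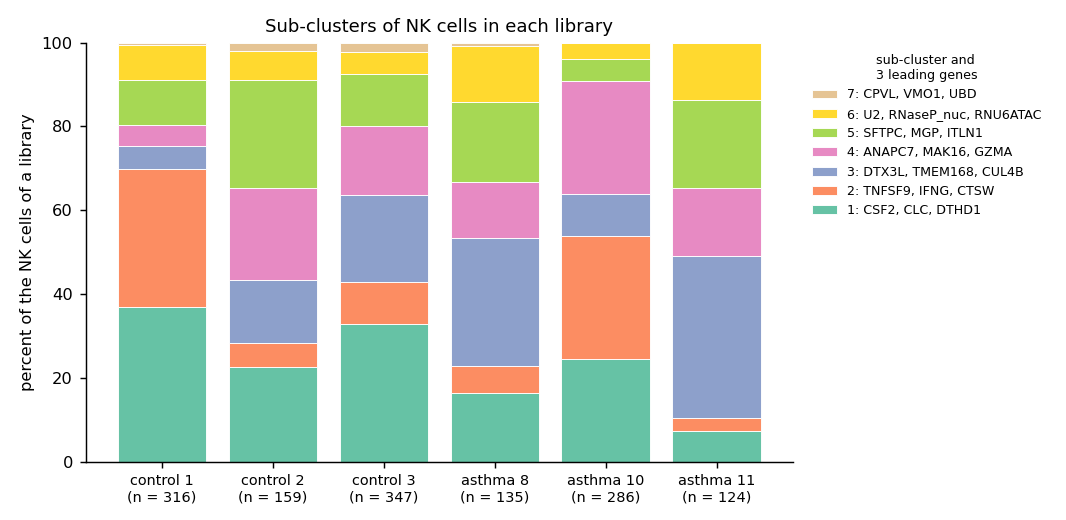
Share of each sub-cluster (percent of the NK cells of a library, vertical axis) in the 6 libraries, with the number of NK cells under each bar. Sub-cluster 2 holds 32.9% of NK cells in control replicate 1 and 29.4% in asthma replicate 10 but 10.1% or less elsewhere, and sub-cluster 3 ranges from 5.38% to 38.7%.

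The sub-clusters were spread unevenly over libraries within both groups. Sub-cluster 2 made up 32.9%, 5.66% and 10.1% of NK cells for control replicates 1, 2 and 3 and 6.67%, 29.4% and 3.23% for asthma replicates 8, 10 and 11. Sub-cluster 3 made up 5.38%, 15.1% and 20.7% against 30.4%, 10.1% and 38.7%, so the groups overlapped here too. Sub-cluster 5 was at 25.8% in control replicate 2 and at 5.24% in asthma replicate 10. No test of these shares is given. Genes of other cells were also present in the NK sums. Of 11 epithelial and mesothelial genes with a symbol, all 11 were detected, with summed levels of 3662, 134 and 692 in the control group and 9746, 505 and 3372 in the asthma group, mostly SFTPC, and CD3-positive cells had 1075 to 3866. Of 13 T cell genes with a symbol, 10 were detected, with summed levels of 337 to 448 in NK cells, of which CD27, also a gene of NK cells, was the most abundant, and CD3D, CD3E and CD3G were at 0 by selection. Of 15 macrophage and monocyte genes 12 were detected, led by LYZ, with summed levels of 385, 283 and 329 against 851, 167 and 226, while C1QA and VCAN (by selection) and MSR1 were at 0. Of 10 genes of B and plasma cells 8 were detected, led by IGKC, with summed levels of 31.8 to 117 and with MS4A1 (by selection) and PAX5 at 0. Of 5 neutrophil genes with a symbol 3 were detected, led by MNDA, with CSF3R (by selection) and S100A12 at 0. Their summed levels were 37.5, 72.5 and 92.3 against 36.8, 17.3 and 15.6, lower in every asthma library. The 1 neutrophil gene tested between the groups had a log2 fold change of -1.81 and was not called.

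Between the asthma and the control group, no gene passed in NK cells. Of 6591 genes tested with edgeR on the summed UMI counts, 0 (0%) were up- or downregulated when both a log2 change beyond 0.25 in size and an adjusted p under 0.05 were asked for, while 340 had an unadjusted p under 0.05. DESeq2 on the same sums called 1 gene. Every asthma library lay above every control library for 321 genes (4.87%) and below for 370 (5.61%). The genes described next are those with the smallest p among these genes. They missed the threshold in the edgeR fit above, which left out genes with low counts. With no filter on low counts edgeR called 9 of them, all but P4HB (edgeR adjusted p = 0.115). The calls depended on the test. The Wilcoxon test across cells, which takes cells as replicates, called 36 genes up and 32 down among 3947.

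TNFRSF18 (GITR), a co-stimulatory receptor of activated lymphocytes, had the smallest p. It was at 0.986, 5.31 and 3.102 CPM for control replicates 1, 2 and 3 and at 36.8, 29.8 and 26.0 for asthma replicates 8, 10 and 11, and the groups did not overlap. These levels rest on 1, 3 and 4 UMIs in the control group and on 17, 31 and 10 UMIs in the asthma group, which came from 3, 11 and 6 cells. The log2 fold change was 3.41 ± 0.46 (SE, edgeR adjusted p = 0.109). DESeq2 gave an adjusted p of 0.00811, and edgeR without sub-clusters 5 and 7 one of 0.0438. With no filter on low counts the edgeR adjusted p was 5.45e-08, so that the call depended on these choices. With at least 2 instead of 3 selecting genes the log2 fold change was 2.30 (edgeR adjusted p = 0.792), and with at least 4 the gene had too few UMIs to enter the fit. Single cells held 10 of the 17 UMIs of asthma replicate 8 and 14 of the 31 of asthma replicate 10. In CD3-positive cytotoxic cells TNFRSF18 was at 10.1, 31.6 and 29.1 in the control group and at 2.13, 17.4 and 29.2 in the asthma group. The difference between the classes in the asthma change was 4.29 on the log2 scale (edgeR interaction, adjusted p = 0.757).

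Other genes higher in every asthma library were STOM, ADGRF5, EMP2 and P4HB, all with an edgeR adjusted p of 0.78. STOM (stomatin), a membrane scaffold protein, was at 25.6, 23.0 and 25.6 against 64.9, 44.2 and 52.0, a log2 fold change of 1.09 ± 0.23 (SE). P4HB, the protein disulfide isomerase of the endoplasmic reticulum, was at 81.9, 93.7 and 119 against 160, 168 and 153, a change of 0.73 ± 0.18. ADGRF5 was at 5.92, 7.07 and 0 against 17.3, 29.8 and 41.6, and EMP2 at 6.90, 12.4 and 12.4 against 21.6, 34.6 and 28.6. The ADGRF5 UMIs came from 13 of 1367 NK cells and the EMP2 UMIs from 28. In asthma replicate 8 all 8 ADGRF5 UMIs came from 1 cell, and in asthma replicate 11 a single cell held 13 of 16. Sub-cluster 5 held 93.8% of the ADGRF5 UMIs and 87.4% of the EMP2 UMIs of NK cells, and sub-cluster 7 held 0 of both. Without sub-clusters 5 and 7, ADGRF5 and EMP2 had too few UMIs to enter the fit. The part of other cells in these values was not tested.

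Genes lower in every asthma library were HLA-DMB, VMO1, EFNB2, IFIT3 and IL1B. HLA-DMB, which loads peptides on MHC class II, was at 16.8, 24.8 and 40.3 in the control group and at 2.16, 1.92 and 0 in the asthma group (log2 fold change -3.98 ± 0.63 SE, edgeR adjusted p = 0.228). VMO1 was at 37.5, 301 and 176 against 6.49, 2.89 and 18.2 (edgeR adjusted p = 0.508), and IL1B, a cytokine of myeloid cells, at 26.6, 193 and 50.4 against 2.16, 10.6 and 2.60 (adjusted p = 0.78). The 14 cells of sub-cluster 7, of which 13 came from the control group, held 75.6% of the HLA-DMB UMIs, 91.3% of those of VMO1 and 78.5% of those of IL1B. Of 7 dendritic cell genes with a symbol, 6 were detected, with CST3 the most abundant and XCR1 at 0. Their summed levels were 123, 65.4 and 1349 in the control group and 392, 49.1 and 161 in the asthma group, so that the groups overlapped and control replicate 3 alone was high. Without sub-clusters 5 and 7, HLA-DMB, VMO1 and IL1B had too few UMIs to enter the fit.

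IFIT3, an antiviral gene induced by interferon, was at 70.0, 83.1 and 76.0 in the control group and 49.8, 38.5 and 28.6 in the asthma group, a log2 fold change of -0.93 ± 0.22 (SE, edgeR adjusted p = 0.78), and sub-cluster 7 held 3.45% of its UMIs and sub-clusters 5 and 7 together 11.7%. Without sub-clusters 5 and 7 the change was -0.77. EFNB2 (ephrin B2) was at 39.5, 26.5 and 18.6 against 4.33, 5.77 and 7.80 (edgeR adjusted p = 0.78), from 79 UMIs in the control group and 11 in the asthma group. Sub-cluster 7 held 2.22% of these UMIs, and sub-clusters 5 and 7 together held 27.8%. By library these held 5%, 66.7% and 37.5% of the EFNB2 UMIs in the control group and 0%, 50% and 33.3% in the asthma group. With at least 2 instead of 3 selecting genes its log2 fold change was -0.50 against -2.21, with doublet scores removed it was -3.24, and without sub-clusters 5 and 7 it had too few UMIs to enter the fit.

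**Figure D4:**
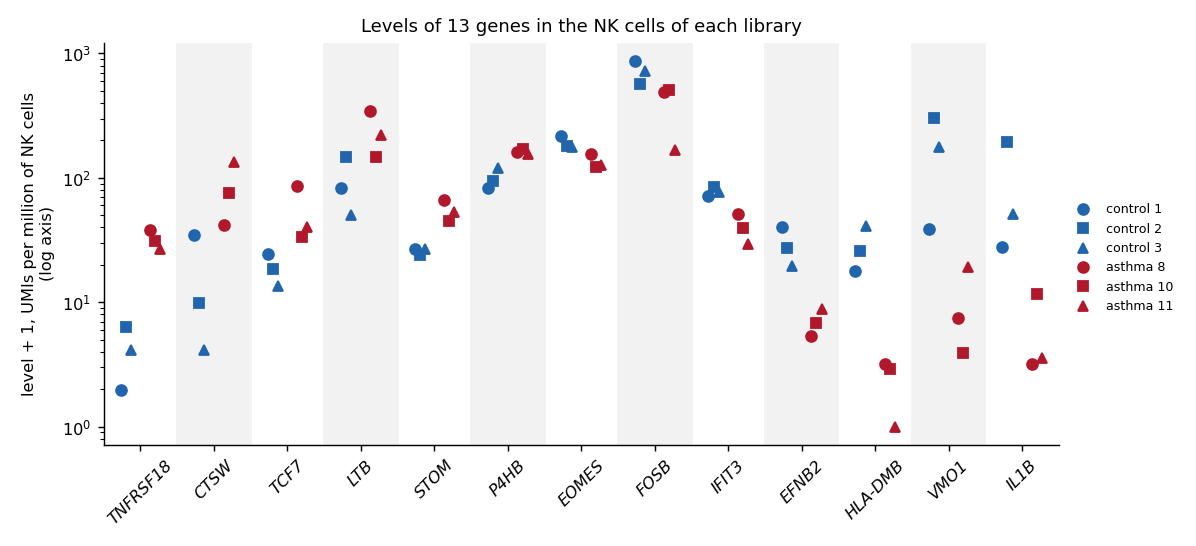
Levels of 13 genes (CPM of NK cells plus 1, log axis) in the control libraries (blue) and the asthma libraries (red), with marker shapes separating libraries. The groups do not overlap for any of these genes, yet the adjusted p of each is 0.109 or more in the edgeR fit of all NK cells with low counts filtered out.

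Among the lists of NK genes, none had a member past the threshold, and the median log2 fold change of all genes tested was 0.01. Selecting genes were left out of the counts and medians of the lists. Over all 6591 genes tested, 4.87% lay above and 5.61% below in every asthma library, and 3192 had a negative and 3399 a positive log2 fold change. Of 10 tested activating receptors, TNFRSF18 was above and SLAMF6 below in every asthma library (median of the list 0.11), and of 4 tested inhibitory receptors none lay apart (median -0.42, all 4 negative). Of 12 tested granule and death ligand genes only CTSW (cathepsin W), a protease of cytotoxic cells, lay apart, at 33.5, 8.84 and 3.102 against 41.1, 74.1 and 133 (log2 fold change 2.41 ± 0.64 SE, edgeR adjusted p = 0.793). The median of the list was -0.05. Of 19 adaptor and signalling genes 3 were above (SH2D1B, FYN and PLCG1) and none below, with a median of 0.06.

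Of 17 transcription factors, TCF7 (TCF-1), a factor of less differentiated lymphocytes, was at 23.7, 17.7 and 12.4 in the control group and 84.4, 32.7 and 39.0 in the asthma group (log2 fold change 1.502 ± 0.39 SE, edgeR adjusted p = 0.793). EOMES, named above for its level, lay below in every asthma library (-0.50 ± 0.17 SE, edgeR adjusted p = 0.89). LTB (lymphotoxin beta) was at 81.9, 147 and 48.9 against 346, 147 and 221, with control replicate 2 just under asthma replicate 10, a change of 1.40 ± 0.38 (SE, edgeR adjusted p = 0.793). Of 6 tested cytokines and chemokines, LTB and TGFB1 were above (median 0.11), and of 10 cytokine receptors 3 were, namely IFNAR1, IL10RA and IL2RB (median 0.10), against 4.87% of all genes tested. Of 15 homing and residency genes ITGB1 was above in every asthma library (median -0.10).

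**Figure D5:**
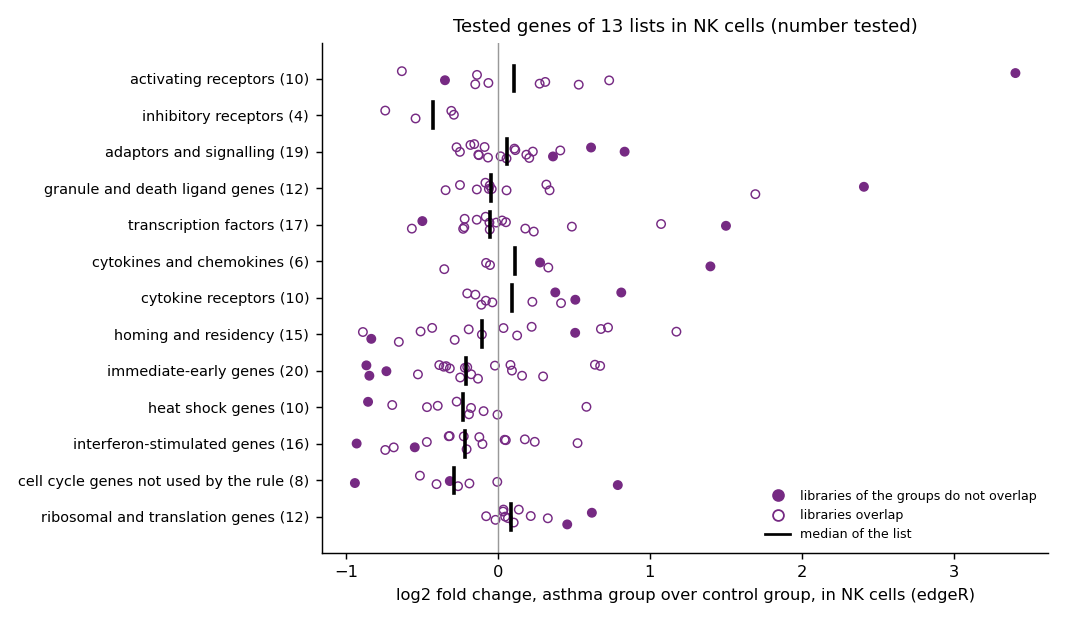
Log2 fold change of the asthma over the control group in NK cells (horizontal axis, edgeR) for the tested genes of 13 lists, with the number tested beside each name. Filled points are genes whose libraries do not overlap between the groups, selecting genes are left out, black bars are list medians, which lie between -0.42 and 0.11, and TNFRSF18 is the point farthest to the right.

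No gene of the lists on the state of the cells passed either. Over all 6591 genes tested, 3192 had a negative and 3399 a positive log2 fold change. Of 20 immediate-early genes, which respond within minutes to stimulation and to tissue dissociation, 14 had a negative log2 fold change (median -0.21) and TNFAIP3, FOSL2 and FOSB lay below in every asthma library, as did 5.61% of all genes tested. FOSB was at 869, 562 and 721 against 489, 504 and 166 (edgeR adjusted p = 0.94). FOS was at 1967, 2052 and 1734 against 1816, 2213 and 437. The groups overlapped for FOS, with asthma replicate 11 far below the other libraries. The summed level of this list was 3330 in asthma replicate 11 and 6938 to 7732 in the other 5 libraries, and CD3-positive cells of that library were also lowest, at 4890 against 8502 to 11149.

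Of 10 heat shock genes 9 had a negative change (median -0.23), of 16 interferon-stimulated genes 11 did (median -0.21), with ISG15 and IFIT3 below in every asthma library, and of 8 cell cycle genes not used for selection 7 did (median -0.29), with CENPF and H2AZ1 below and MCM5 above in every asthma library. HSPH1, a heat shock chaperone, was at 117, 97.3 and 82.99 against 54.1, 66.4 and 33.8 (edgeR adjusted p = 0.866), and asthma replicate 11 was again lowest. Of 12 ribosomal and translation genes 10 had a positive change (median 0.09), and RPS2 and RPL13 lay above in every asthma library. Of all 6591 genes tested, 3192 had a negative and 3399 a positive change, and 4.87% lay above and 5.61% below in every asthma library. STMN1, a regulator of microtubules in dividing cells, was at 112, 101 and 177 against 97.4, 60.6 and 127 (edgeR adjusted p = 0.941). HMGB2 was at 251, 170 and 218 against 236, 153 and 146 (edgeR adjusted p = 0.968), and UBE2C and TYMS had too few UMIs for a test. COTL1, an actin-binding protein, was at 38.5, 95.5 and 152 against 56.3, 10.6 and 31.2 (edgeR adjusted p = 0.89), and sub-cluster 7 held 80.2% of its UMIs. APOE, a lipid carrier, was at 60.5 to 162 in both groups together. DCN (decorin), a matrix protein of fibroblasts, reached 176 in control replicate 3, where 1 cell held 129 of its 227 UMIs.

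The asthma change in NK cells was also set against that in CD3-positive cytotoxic cells of the same libraries. Of 8829 genes tested with edgeR for an interaction of class and condition, 0 (0%) were called, while 386 had an unadjusted p under 0.05, and DESeq2 called 3. Among CD3-positive cytotoxic cells alone, edgeR called 0 of 9886 genes, with 399 at an unadjusted p under 0.05. HLA-DMB and VMO1 had differences of -3.59 and -2.77 on the log2 scale (adjusted p of 0.5 and 0.0718). For FCER1G the log2 fold change was -0.12 in NK cells and -0.55 in CD3-positive cells, and for SYK -0.18 and -1.17, with an edgeR interaction adjusted p of 1 for both.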

How the data were processed

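Lung cells of 6 monkeys were captured with the 10× Chromium 3′ V3 chemistry, and the authors deposited unnormalized UMI counts of 28623 genes (21095 with a symbol) for the barcodes kept as cells by Cell Ranger. The submitters' processing notes name Cell Ranger 2.1.1, whereas the file headers name 4.0.0. The genome was macFas6. CD16 was not analysed here, and single members of some gene lists are not reported here.

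The NK cells and gene lists were chosen with earlier results of these data known. Doublets were treated as an alternative, in which the cells with the highest Scrublet scores were removed (0.8% per 1000 cells, 15 NK cells), since Scrublet's own threshold marked only 10 barcodes. Shares were compared over libraries by two-sided exact permutation. Counts were summed per library and tested with edgeR 4.0.16 (quasi-likelihood, TMM, filterByExpr) in R 4.3.3. Replicates were separate monkeys. For sub-clusters, 2000 variable genes, 10 principal components, 20 neighbours and a Leiden resolution of 0.5 were used (scanpy 1.11.5), and leading genes were ranked by fold with 10 CPM added. The edgeR and Wilcoxon tests were checked on simulated data, with outcomes not given here.

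Genes named were drawn from the selecting and marker genes, the 5 genes per direction with the smallest p and no overlap between groups, in each list the most abundant tested genes, the 10 highest and 10 lowest ratios to CD3-positive cytotoxic cells (at least 50 CPM, selecting genes left out), and genes that the paper names for T and NK cells. Genes with separate groups in a list were also named, chosen after their values were seen. Alternatives were a mitochondrial maximum of 10%, at least 2 or 4 selecting genes, doublets removed, other denominators, thinning, DESeq2 1.42.0, no filter on low counts, the Wilcoxon test across cells (genes in at least 10% of cells) and each library left out.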

Additional observations from a re-analysis of the deposited data

How the results depend on the processing

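The lower mean share of NK cells in the asthma group kept its direction under every alternative, with exact permutation p-values of 0.2 to 0.4 in a design that allows none below 0.1, and differences from -1.74 to -3.74 percentage points when each library was left out, -2.40 with a mitochondrial maximum of 10% and -5.48 after thinning. For genes that differed between the groups in NK cells, counts were 0 up and 0 down with edgeR. DESeq2 called 1 up, edgeR without sub-clusters 5 and 7 called 1 up, edgeR with no filter on low counts called 74 up and 93 down among 15126, and the Wilcoxon test called 36 up and 32 down. Leaving out 1 library gave 0 up each time and 0 to 2 down. The 2 were VMO1 and CFD, without control replicate 1. The interaction with CD3-positive cytotoxic cells called 0, but 3 with DESeq2, 92 with no filter, 1 when the other class needed at least 2 CD3 UMIs (an alternative chosen after seeing the data), and 0 to 7 with a library left out, 7 without control replicate 2 and 2 without asthma replicate 11. The cause of these shifts was not tested. The 10 genes named for the smallest p among those without overlap between the groups kept their direction in each alternative that gave them a value. Their groups were separate by choice, so a kept direction with a library left out was largely fixed by that choice. No paired analysis was possible because the groups share no replicate numbers. The planned share of CD16-positive cells was not run, since no gene of the files carried the symbol. With 384639 UMIs in the shallowest library, genes with few UMIs could not be compared.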

Other observations

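Single cells held many of the UMIs of some genes in the NK sums. UBD, a ubiquitin-like protein induced by inflammation, had 240 of its 246 UMIs in 1 cell of asthma replicate 8, which fell in sub-cluster 7. CXCL10, an interferon-induced chemokine, had 118 of its 124 UMIs of control replicate 2 in 1 cell. CFD (complement factor D) had 265 of 509 UMIs in 1 cell of control replicate 2 and 248 of 538 in 1 cell of control replicate 3. CFD was detected in 21 and 43 NK cells of these libraries.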
